A study of Arabidopsis thaliana with 27 samples.

Results

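Expression was followed for 10 Arabidopsis genes that encode the entry of the shikimate pathway and the tryptophan branch, chosen by their AGI codes from the 18899 genes of the expression table. They are DHS1 (AT4G39980), DHS2 (AT4G33510), ASA1 (AT5G05730), ASB1 (AT1G25220), PAT1 (AT5G17990), the 2 IGPS genes (AT2G04400, called IGPS here, and AT5G48220), TSA1 (AT3G54640), TSB1 (AT5G54810) and TSB2 (AT4G27070). All 10 were present in the table. The samples were 27 RNA-seq libraries of leaves from Col-0 wild-type plants aged 5 weeks, in 7 groups. Control plants stayed unwounded and were taken once, at 3 h. In the wounded groups 3 leaves per plant received 4 holes of 1 mm each, and each hole was given 2 μl of water (W) or of the oral secretions (OS) of caterpillars, from Pieris brassicae in the Pb OS groups and from Spodoptera littoralis in the Sl OS groups. Discs of 1 cm around the wound were collected at 3 h or 24 h. Each group had 4 biological replicates, except W at 3 h with 3. The OS were obtained by squeezing larvae, stored frozen and put on wounds made by hand, so the groups model the secretion and not feeding.

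The shikimate pathway leads from primary carbon metabolism to chorismate, the precursor of the aromatic amino acids. 3-Deoxy-D-arabino-heptulosonate 7-phosphate (DAHP) synthase, encoded by DHS genes, catalyses its first step. Anthranilate synthase commits chorismate to tryptophan: the alpha subunit (ASA1) holds the catalytic site that tryptophan inhibits, and the beta subunit (ASB1) releases ammonia from glutamine. PAT1 adds a phosphoribosyl group to anthranilate, IGPS closes the indole ring, and tryptophan synthase ends the pathway, its alpha subunit (TSA1) releasing indole and its beta subunit (TSB1, TSB2) joining it to serine. In Arabidopsis leaves tryptophan is also the precursor of indole glucosinolates, camalexin and auxin.

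The 250 bases before the gene start are shown for the 5 genes of the anthranilate-to-indole steps that were higher with OS, beside the IGPS gene that was lower. Sequences and positions are from the RefSeq TAIR10.1 assembly and read 5′ to 3′ on the strand of the gene. Capitals mark TTGACC or TTGACT (a core of the W-box, bound by WRKY factors) or CACGTG (the G-box) on either strand, so that GGTCAA and AGTCAA are the same motif on the other strand.
ASA1, chr5:1722934-1723183, minus strand: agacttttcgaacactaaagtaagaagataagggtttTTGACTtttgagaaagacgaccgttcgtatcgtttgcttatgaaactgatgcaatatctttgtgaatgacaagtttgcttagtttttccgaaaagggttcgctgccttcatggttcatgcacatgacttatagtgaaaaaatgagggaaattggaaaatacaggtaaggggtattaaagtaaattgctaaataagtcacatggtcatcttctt
ASB1, chr1:8839610-8839859, minus strand: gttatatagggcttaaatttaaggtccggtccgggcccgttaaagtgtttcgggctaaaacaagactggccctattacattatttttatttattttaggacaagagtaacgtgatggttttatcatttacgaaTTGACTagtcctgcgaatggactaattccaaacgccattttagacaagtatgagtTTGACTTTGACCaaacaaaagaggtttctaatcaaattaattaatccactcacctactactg
PAT1, chr5:5956830-5957079, plus strand: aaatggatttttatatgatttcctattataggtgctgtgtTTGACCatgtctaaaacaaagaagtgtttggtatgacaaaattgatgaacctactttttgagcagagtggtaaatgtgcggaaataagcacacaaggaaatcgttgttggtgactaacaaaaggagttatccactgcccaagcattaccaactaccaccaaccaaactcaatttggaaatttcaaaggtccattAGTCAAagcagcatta
IGPS, chr2:1530898-1531147, plus strand: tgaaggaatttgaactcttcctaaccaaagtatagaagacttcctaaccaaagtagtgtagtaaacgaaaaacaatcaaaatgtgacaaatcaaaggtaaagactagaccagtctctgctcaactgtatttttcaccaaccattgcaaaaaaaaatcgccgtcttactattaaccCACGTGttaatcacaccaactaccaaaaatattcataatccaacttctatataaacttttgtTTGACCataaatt
TSA1, chr3:20225524-20225773, minus strand: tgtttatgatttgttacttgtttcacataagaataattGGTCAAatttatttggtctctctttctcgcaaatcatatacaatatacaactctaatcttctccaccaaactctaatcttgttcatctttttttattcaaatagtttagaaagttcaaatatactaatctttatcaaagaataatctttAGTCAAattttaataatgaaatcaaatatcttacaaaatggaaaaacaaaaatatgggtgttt
AT5G48220, chr5:19549426-19549675, plus strand: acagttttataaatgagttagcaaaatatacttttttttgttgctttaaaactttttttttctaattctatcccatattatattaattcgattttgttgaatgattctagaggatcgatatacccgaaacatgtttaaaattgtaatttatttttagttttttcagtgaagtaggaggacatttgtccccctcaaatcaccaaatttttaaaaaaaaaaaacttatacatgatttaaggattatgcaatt

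TTGACC or TTGACT occurred in the promoter windows of 5 of the 10 genes, against 28.4% of the 27443 protein-coding genes of the assembly. ASB1 held the motif 3 times, 117, 62 and 56 bases before the start, the last pair directly adjoining each other. PAT1 (210 and 16 bases) and TSA1 (212 and 63 bases) held it in 2 places each, and ASA1 (213 bases) and IGPS (13 bases) in 1. CACGTG occurred in the IGPS window only (75 bases before the start), against 6.5% of all windows, and GCCGCC in 0 of 10, against 1.9%. No match to any of these motifs lay in the windows of DHS1, DHS2, AT5G48220, TSB1 and TSB2. These are matches of letters, and binding was not measured.

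Values are CPM, read counts scaled to a common library size, from the log2 CPM that the study deposited, in replicate order unless said otherwise. Changes are log2 differences ± SE from a linear model across all 18899 genes (limma), with p-values adjusted by Benjamini-Hochberg. Calls against the control required an adjusted p under 0.05 with a log2 change over 1 in size, and calls between treatments or times the p threshold alone. The 6 comparisons with the control share the same 4 control libraries. Where groups are said to overlap or not, the samples are only described, and how many of all genes separate likewise was not counted. The libraries held 22478292 to 31335753 reads, and a member had 221 to 45099 reads in any one of them, so counting error was small beside the spread between replicates.

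The photosynthetic markers RBCS1A, RCA, CA1 and LHCB1.3 marked the samples as leaf, with a summed level of 40843 to 62335 CPM in the control. All 4 were called lower in the OS groups at 3 h, where their sum was 14266 to 24483 CPM (Pb OS) and 7513 to 22900 CPM (Sl OS), by 1.14 to 2.04 and by 1.54 to 2.47 on the log2 scale. The 3 guard cell markers summed to 33.3 to 46.3 CPM in the control and to 49.6 to 89.8 CPM with OS at 3 h, and the 3 vascular markers to 246.1 to 342.5 and 224.2 to 283.9 CPM, SULTR2;2 alone of the latter being called lower. Of the guard cell list, KAT1 was called higher with Sl OS (1.24, adjusted p = 0.00187) and MYB60 was lower on p with Sl OS (-0.58, adjusted p = 0.0325). MYB60 was also lower with Pb OS and Sl OS than with W (-0.72 and -0.96, adjusted p = 0.0368 and 0.00566). AG, the flower marker measured, had at most 2.5 CPM and was called lower with Sl OS (-2.26, adjusted p = 0.000685). All 4 wound response markers (JAZ10, VSP2, CYP94B3, LOX2) were called higher in W, Pb OS and Sl OS at 3 h. In such bulk samples a change in the make-up of cells and a change of RNA per cell cannot be told apart, and the part of the marker shifts in the results below was not tested.

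At 3 h ASA1, ASB1, PAT1, IGPS, TSA1, TSB1 and TSB2 were called higher and AT5G48220 lower with both Pb OS and Sl OS, 8 of 10 members in each comparison. Of all genes, 13.4% were called higher and 14.5% lower with Pb OS, and 14.5% and 16.2% with Sl OS. With W alone only TSA1 was called (1 of 10, against 3.50% of all genes called higher). The median change of the 10 members was 0.59 with W, 1.52 with Pb OS and 1.78 with Sl OS on the log2 scale, while the medians over all genes were -0.002, -0.001 and 0.011. At 24 h none of the 10 was called against the control in any treatment.

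**Figure D1:**
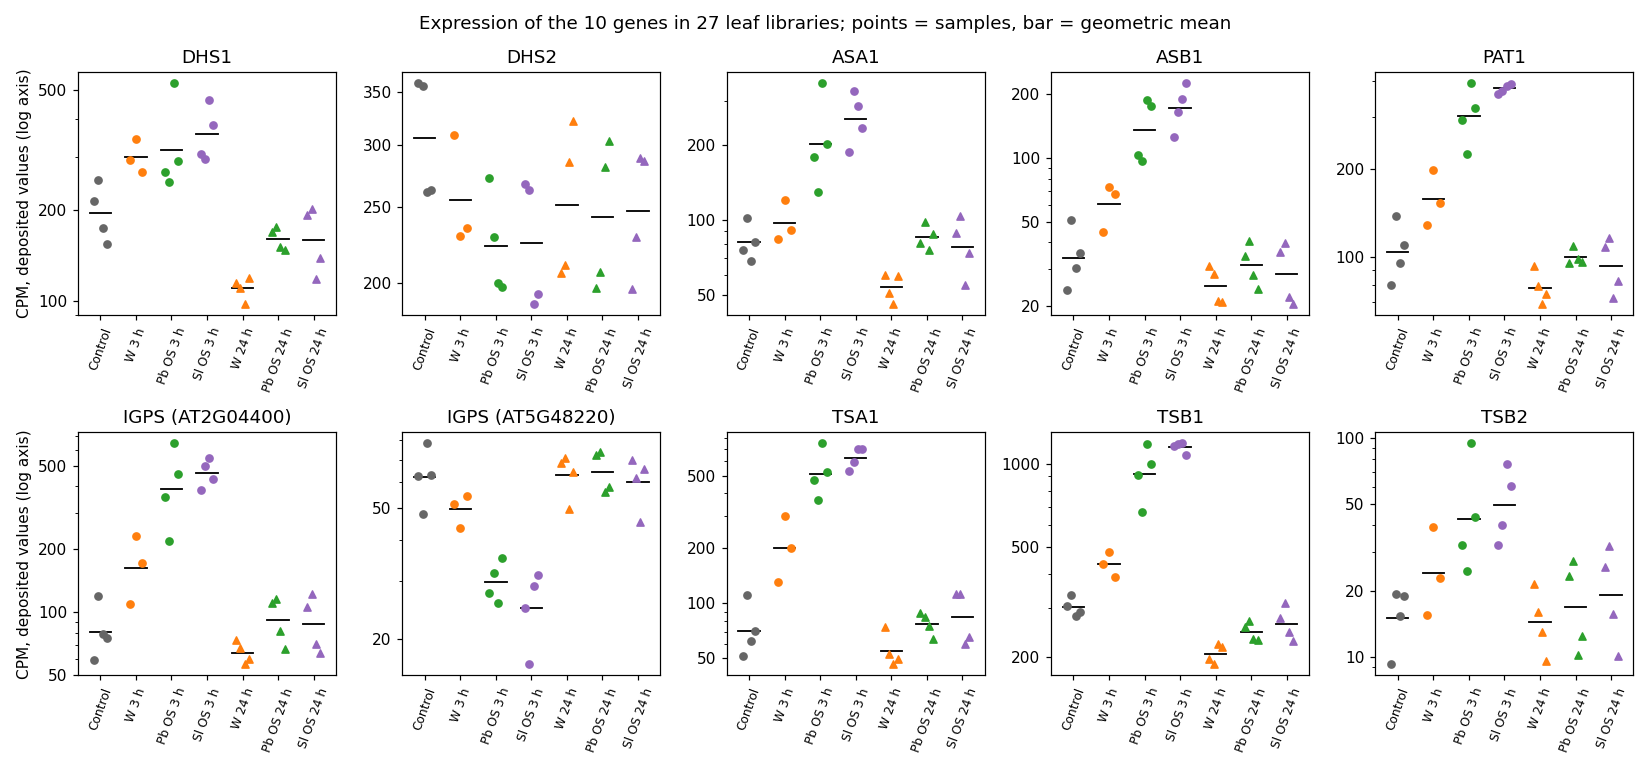
Levels of the 10 genes in 27 libraries, as CPM of the deposited values on a log axis, by group; circles are control and 3 h samples, triangles 24 h samples, and the bar is the geometric mean of the group. In ASA1, ASB1, PAT1, TSA1 and TSB1 every OS sample at 3 h lies above every W and control sample, in AT5G48220 below them, and DHS2 overlaps in all groups. The share of all genes that separate in this way was not counted.

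Neither of the DAHP synthase genes DHS1 and DHS2 was called against the control at 3 h. DHS1 was at 215, 252, 175 and 155 CPM in the control, 293, 343 and 268 in W, 267, 248, 528 and 292 in Pb OS and 307, 296, 464 and 385 in Sl OS at 3 h. W and Sl OS lay above the control, and Pb OS overlapped it with 1 sample. Its change of 0.70 ± 0.23 with Pb OS (adjusted p = 0.0151) and 0.87 ± 0.23 with Sl OS (adjusted p = 0.00342) passed the p threshold but not the size threshold, and that with W (0.58 ± 0.25, adjusted p = 0.232) passed neither. OS and W did not differ detectably for DHS1, at 0.11 (95% interval -0.41 to 0.63) for Pb OS and 0.28 (-0.24 to 0.80) for Sl OS. Much of the rise with OS came from replicates 3 and 4: within replicates 1 and 2 it was 0.14 and 0.37 for Pb OS and Sl OS, and within 3 and 4 it was 1.25 and 1.36.

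For DHS2 the estimates lay below 0. Deposited values were 359, 357, 262 and 263 CPM in the control, 309, 230 and 235 in W, 273, 229, 200.3 and 198 in Pb OS and 268, 263, 188 and 194 in Sl OS at 3 h, so that the groups overlapped. The changes of -0.46 ± 0.21 with Pb OS (adjusted p = 0.0705) and -0.44 ± 0.21 with Sl OS (adjusted p = 0.0755) did not pass. The replicates of DHS2 split in pairs, with 1 and 2 above 3 and 4 at 3 h and below them at 24 h. The deposited values have 1 difference between the replicate pairs removed over both times, and for DHS2 the reads recovered from them show the pairs apart at 24 h and close at 3 h. In CPM from these reads, with the pair difference put back, DHS2 was at 299 to 315 in the control, 262 to 270 in W, 201 to 239 in Pb OS and 215 to 234 in Sl OS, 4 ranges of which only those of the OS groups overlap. With the pair difference fitted separately at each time, the changes kept their size (-0.46 ± 0.07 and -0.44 ± 0.07) and passed the p threshold with adjusted p = 2.12e-05 and 2.41e-05, and DHS2 was also lower with OS than with W, by -0.27 (adjusted p = 0.0121) and -0.25 (adjusted p = 0.0133). At 3 h both pairs had the same direction, at -0.52 and -0.40 with Pb OS and -0.43 and -0.46 with Sl OS. At 24 h they went opposite ways, replicates 1 and 2 being below the control (-0.75 to -0.83 over the 3 treatments) and replicates 3 and 4 above it (0.13 to 0.21). The same fit by time gave mean changes at 24 h of -0.28 with W (adjusted p = 0.0145), -0.34 with Pb OS (adjusted p = 0.00462) and -0.31 with Sl OS (adjusted p = 0.00688). Each averages 2 pairs of opposite direction, so that no direction common to the pairs can be given for DHS2 at that time. The changes of the group means stayed under 1 in size in both fits.

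**Figure D2:**
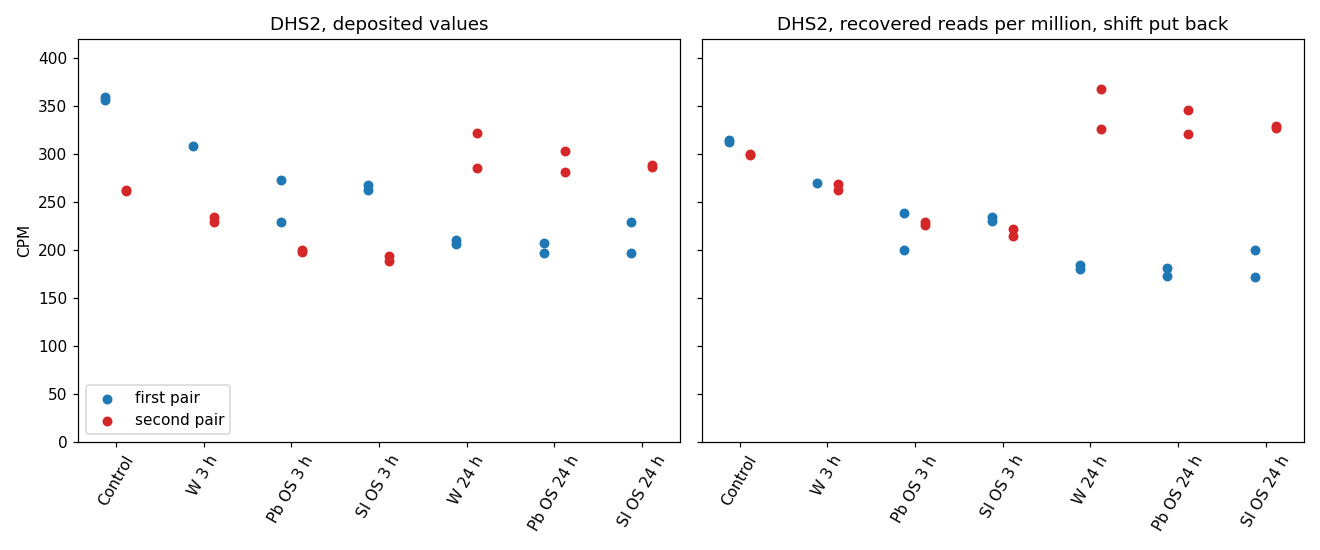
DHS2 in CPM by group, left as deposited and right as CPM from recovered reads with the pair difference put back; blue points are the first replicate pair, red the second. On the right the 3 h pairs lie close together and the 24 h pairs stand apart, at 172 to 201 and 321 to 368 CPM.

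Anthranilate synthase rose in both subunits. ASA1 stood at 75.6, 102, 68.5 and 81.3 CPM in the control, 83.6, 120 and 91.1 in W, 179, 129, 354 and 202 in Pb OS and 187, 330, 286 and 233 in Sl OS. All OS samples exceeded all W and control samples, while W overlapped the control. The change was 1.32 ± 0.25 with Pb OS (2.49-fold, adjusted p = 0.000309) and 1.65 ± 0.25 with Sl OS (3.13-fold, adjusted p = 2.83e-05), against 0.26 ± 0.28 with W (adjusted p = 0.741). Without Pb OS replicate 3, its highest sample, the Pb OS change of ASA1 was 0.98 (adjusted p = 0.00107), just under the size threshold. ASB1 was at 23.8, 50.7, 30.1 and 35.7 CPM in the control, 44.7, 73.4 and 67.3 in W, 103, 97.3, 187 and 177 in Pb OS and 126, 166, 190 and 226 in Sl OS. Here too each OS sample lay above each W and control sample. ASB1 rose 4.00-fold with Pb OS (2.00 ± 0.29, adjusted p = 1.61e-05) and 5.12-fold with Sl OS (2.36 ± 0.29, adjusted p = 2.09e-06). Of the 150-base windows of its transcript, 19.6% also occur in near-copies, among them AT5G57890, so its level is uncertain to the extent that reads there were split or dropped. AT5G57890 itself changed by -0.52 with Pb OS (adjusted p = 0.0691) and by -0.81 with Sl OS (adjusted p = 0.00687), against the direction of ASB1.

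PAT1, the next enzyme, had 80.3, 138, 95.3 and 110 CPM in the control and 128, 199 and 153 in W. It had 293, 225, 393 and 323 CPM in Pb OS and 361, 369, 384 and 390 in Sl OS, with no overlap with W or the control and little spread in Sl OS. The change was 1.54 ± 0.19 with Pb OS (2.91-fold, adjusted p = 3.05e-06) and 1.86 ± 0.19 with Sl OS (3.62-fold, adjusted p = 2.94e-07). With W it was 0.60 ± 0.21 (adjusted p = 0.114).

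The 2 IGPS genes parted. IGPS (AT2G04400) was at 59.3, 120, 78.9 and 75.5 CPM in the control, 110, 232 and 172 in W, 356, 218, 644 and 460 in Pb OS and 384, 501, 545 and 435 in Sl OS. It rose 4.83-fold with Pb OS (2.27 ± 0.30, adjusted p = 6.98e-06) and 5.73-fold with Sl OS (2.52 ± 0.30, adjusted p = 1.73e-06). All OS samples lay above the control, and 1 Pb OS sample lay within the range of W. AT5G48220 was at 62.4, 47.9, 78.4 and 63.0 CPM in the control, 51.2, 43.4 and 54.4 in W, 27.6, 31.7, 25.7 and 35.3 in Pb OS and 24.9, 16.8, 29.0 and 31.3 in Sl OS. It fell, with every OS sample below every W and control sample. The change was -1.05 ± 0.19 with Pb OS (2.08-fold lower, adjusted p = 0.000188) and -1.32 ± 0.19 with Sl OS (2.5-fold lower, adjusted p = 1.6e-05). The Pb OS call sits at the size threshold: without control replicate 3, Pb OS replicate 1 or Pb OS replicate 3 the change was -0.895, -0.987 and -0.998, with adjusted p of 0.0011 to 0.00136.

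TSA1 was at 51.3, 111, 62.2 and 70.9 CPM in the control, 132, 302 and 199.8 in W, 470, 370, 751 and 523 in Pb OS and 532, 596, 696 and 695 in Sl OS. The 3 levels did not overlap: control lay below W, and W below both OS groups. TSA1 rose 2.75-fold with W (1.46 ± 0.31, adjusted p = 0.00611), 7.22-fold with Pb OS (2.85 ± 0.28, adjusted p = 3.05e-07) and 8.84-fold with Sl OS (3.14 ± 0.28, adjusted p = 7.36e-08), the largest change of the 10 members in each. Without W replicate 2, its highest W sample, the W change of TSA1 was 1.196 and no longer passed (adjusted p = 0.0726).

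The beta subunit gene TSB1 was at 307, 334, 282 and 292 CPM in the control, 433, 481 and 389 in W, 908, 672, 1176 and 995 in Pb OS and 1165, 1177, 1188 and 1078 in Sl OS. As with TSA1, control, W and the OS groups did not overlap. TSB1 rose 3.03-fold with Pb OS (1.60 ± 0.14, adjusted p = 7.56e-08) and 3.80-fold with Sl OS (1.93 ± 0.14, adjusted p = 6.17e-09), the smallest errors of the set, and its W change of 0.50 ± 0.15 did not pass (adjusted p = 0.0731). TSB2, the minor isogene, was at 9.21, 19.4, 15.4 and 18.9 CPM in the control, 15.6, 39.1 and 22.9 in W, 32.4, 24.6, 94.8 and 43.3 in Pb OS and 32.4, 40.2, 76.1 and 60.3 in Sl OS. The OS groups lay above the control and overlapped W. Its changes of 1.495 ± 0.456 (adjusted p = 0.0104) and 1.712 ± 0.456 (adjusted p = 0.00386) had the largest error of the set, and without Pb OS replicate 3 that with Pb OS was 1.08 (adjusted p = 0.0614).

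For the 7 genes that rose, the direction was the same within each replicate pair. With Pb OS the changes were 0.79 to 2.46 within replicates 1 and 2 and 1.80 to 3.24 within replicates 3 and 4, and with Sl OS 1.44 to 2.90 and 1.79 to 3.39. AT5G48220 changed by -0.89 and -1.22 with Pb OS and by -1.42 and -1.22 with Sl OS. Without Pb OS replicate 3 the number of members called with Pb OS was 5 in place of 8 (ASB1, PAT1, IGPS, TSA1 and TSB1), while with Sl OS it was 8 whichever single library was left out.

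**Figure D3:**
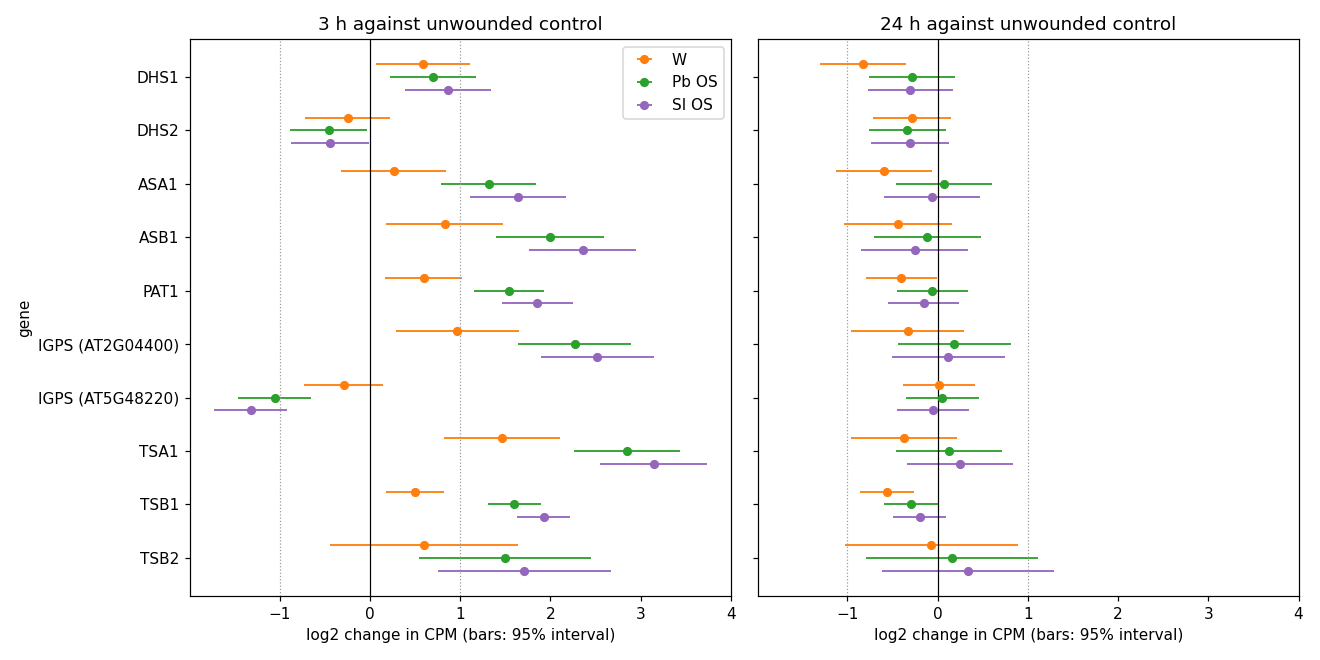
Log2 change in CPM against the unwounded control at 3 h (left) and 24 h (right) for W, Pb OS and Sl OS; points are model estimates, bars 95% intervals, and dotted lines the size threshold of 1. At 3 h the OS points of 7 genes lie beyond 1 and those of AT5G48220 beyond -1, and at 24 h all points lie between -0.83 and 0.34.

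Whether the secretion added to the wound was asked by comparing each OS with W at the same time. At 3 h 7 of 10 members differed with each OS: ASA1, ASB1, PAT1, IGPS, TSA1 and TSB1 were higher and AT5G48220 lower. Of all genes, 10.6% were higher and 14.2% lower with Pb OS than with W, and 13.9% and 18.1% with Sl OS. TSA1 was 2.62-fold higher with Pb OS (1.39 ± 0.31, adjusted p = 0.00376) and 3.21-fold higher with Sl OS (1.68 ± 0.31, adjusted p = 0.000596). TSB1 had the smallest p of the 10, at 1.102 ± 0.155 (adjusted p = 0.00021) and 1.427 ± 0.155 (adjusted p = 1.81e-05). For ASA1, which W did not move detectably, the OS samples were 2.07-fold and 2.61-fold above W. AT5G48220 was 1.7-fold and 2.04-fold lower. TSB2 did not pass at 0.90 ± 0.50 (adjusted p = 0.194) and 1.11 ± 0.50 (adjusted p = 0.0962), and neither did DHS1 and DHS2. With the pair difference fitted separately at each time, TSB2 passed with both (0.96, adjusted p = 0.0144, and 1.18, adjusted p = 0.003), as did DHS2, which made 9 of 10 members for each OS, where 6975 and 8192 genes in all passed. Single libraries decided some of the Pb OS calls: without W 3 h replicate 1 ASB1 and IGPS did not pass (adjusted p = 0.0633 and 0.0591), nor did ASB1 without Pb OS replicate 3 (adjusted p = 0.0531) or AT5G48220 without W replicate 3 (adjusted p = 0.0751), and TSB2 passed without Pb OS replicate 2 (1.32, adjusted p = 0.0428). When the fit held only the Pb OS and W samples of 3 h, 0 of the 7 passed (adjusted p of 0.171 to 0.266) and neither did any of the 18899 genes, with estimates of 0.91 to 1.35 for the 6 higher members, whereas the same 7 stood in the fit of Sl OS and W alone.

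The 2 secretions did not differ detectably for any member. In the differences of Pb OS minus Sl OS at 3 h, 0 of 10 members and 0 of 18899 genes (0%) passed in limma, with 1 member and 783 genes at an unadjusted p under 0.05, and 0 genes passed with voom on recovered reads. With the pair difference fitted by time 8 genes passed, 0 of them members. Point estimates were lower with Pb OS for the 7 genes that rose, from -0.22 (TSB2) to -0.36 (ASB1). Their intervals were wide, for instance -0.88 to 0.30 for TSA1, -0.86 to 0.20 for ASA1 and -1.17 to 0.74 for TSB2. TSB1 had the narrowest, -0.62 to -0.03, at an unadjusted p of 0.0334 and an adjusted p of 1. At 24 h no member passed, with estimates of -0.18 to 0.14.

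By 24 h the mean levels were back near or under the control. For TSB2 these means joined replicate pairs of opposite direction. Replicates 1 and 2 lay above the control, by 0.48 (W), 0.92 (Pb OS) and 1.11 (Sl OS) on the log2 scale. Replicates 3 and 4 lay below it, by -0.62, -0.60 and -0.44. The pairs of DHS2 and AT5G48220 also went opposite ways in all 3 treatments. At 24 h 0 of 10 members were called with W (1.55% of all genes), Pb OS (1.79%) and Sl OS (2.75%) in limma, with 4, 1 and 0 members at an unadjusted p under 0.05, and voom on recovered reads called 0 as well. Of all genes in limma, 2545, 2452 and 3236 had an unadjusted p under 0.05. W tended lowest, with 9 of 10 estimates below 0 and a median of -0.39. TSB1 at W 24 h was at 197, 188, 222 and 217 CPM, all below the control, a change of -0.56 ± 0.14 that passed on p (adjusted p = 0.0441), as 0.307% of all genes did in that direction, but not on size. DHS1 at W 24 h was at 115, 110, 97.7 and 119 CPM, also below all control samples (-0.83 ± 0.23, adjusted p = 0.0705). The median was -0.005 with Pb OS and -0.11 with Sl OS. The control was taken only at 3 h, so that the 24 h comparisons also span a difference in time.

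Between OS and W at 24 h, 0 of 10 members passed for either secretion, against 0.0582% and 0.392% of all genes, with 2 and 4 members at an unadjusted p under 0.05 in limma, and voom also gave 0. Of all genes in limma, 665 and 1199 had an unadjusted p under 0.05. The estimates ran from -0.05 to 0.67 (Pb OS) and from -0.07 to 0.62 (Sl OS). ASA1 had the largest with Pb OS, at 0.67 ± 0.25 (adjusted p = 1), where samples of 80.4, 98.0, 75.6 and 87.4 CPM stood above the 59.7, 50.6, 45.8 and 59.3 CPM of W.

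From 3 h to 24 h 9 of 10 members changed in each OS group, 8 falling and AT5G48220 rising, with DHS2 not passing. Of all genes 22.5% fell and 23.2% rose over that time with Pb OS, and 23.9% and 25.1% with Sl OS. TSA1 was 6.62-fold and 7.45-fold lower at 24 h, ASB1 4.33-fold and 6.12-fold, and AT5G48220 2.15-fold and 2.41-fold higher. In W 6 of 10 members fell (2.96% of all genes): DHS1, ASB1, PAT1, IGPS, TSA1 and TSB1, by 1.00 to 1.83 on the log2 scale. That number was 3 without W 3 h replicate 2 and 0 in a fit of the W samples alone, in which 0 of 18899 genes passed. ASB1 and IGPS were also lost without W 3 h replicate 3 or W 24 h replicate 2 or 3, and ASB1 without W 24 h replicate 4 (adjusted p of 0.0561 to 0.126). TSB2 was lost in either OS group when replicate 3 or 4 of that group at either time was left out (adjusted p of 0.0567 to 0.117).

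The OS effect over W was compared between the times as an interaction. For Sl OS it was smaller at 24 h for ASB1 (-1.35 ± 0.42, adjusted p = 0.0406), PAT1 (-1.01 ± 0.28, adjusted p = 0.0237) and TSB1 (-1.07 ± 0.21, adjusted p = 0.00561), and less negative for AT5G48220 (0.96 ± 0.29, adjusted p = 0.0328), 4 of 10 members against 14.0% of all genes. The block kept the W 3 h samples as numbered in the labels (1, 2, 3). Numbered 1, 3, 4, as the deposited values were centred, ASB1 did not pass (adjusted p = 0.0555), and numbered 1, 4, 3 neither ASB1 (adjusted p = 0.0577) nor AT5G48220 (adjusted p = 0.0512) did. For Pb OS TSB1 alone passed (-0.84 ± 0.21, adjusted p = 0.03), 1 of 10 against 5.61%. Leaving out single libraries gave 0 to 5 members for Pb OS and 1 to 4 for Sl OS. The Sl OS number was 1 when W 3 h replicate 1 or 3, W 24 h replicate 1 or replicate 4 of Sl OS at 24 h was dropped, and 2 when the second Sl OS sample of 3 h was. The Pb OS number was 5 when the second Pb OS sample of 3 h was dropped, and 0 when W 3 h replicate 1 or 3, W 24 h replicate 1 or 3, or replicate 3 or 4 of Pb OS at either time was.

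The mean levels of 8 members (DHS1, ASA1, ASB1, PAT1, IGPS, TSA1, TSB1 and TSB2) stood in the order Sl OS 3 h, Pb OS 3 h, W 3 h, then control and the 24 h groups. Within that order Sl OS and Pb OS did not differ beyond their spread in any, Pb OS and W differed in 6 (not DHS1 and TSB2), and W and control differed by the called threshold in TSA1 only. AT5G48220 had the reverse order at 3 h.

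Several steps are encoded by more than 1 gene, and the make-up of the step was compared as shares of recovered reads per exon length. Exon length is that of all annotated exons of a gene, merged where they overlap. At the IGPS step IGPS held 61.9% ± 9.3 (SD, n = 4) of the control level, 80.4% ± 9.6 (n = 3) with W, 93.5% ± 3.9 (n = 4) with Pb OS and 95.8% ± 1.2 (n = 4) with Sl OS. The remainder, AT5G48220, fell from 38.1% to 4.2% with Sl OS, while the sum of both rose from 92.7 ± 13.4 to 342 ± 60.7 RPKM. RPKM are the recovered reads scaled to library size and exon length. At 24 h IGPS held 56.4% (W) to 64.8% (Sl OS). ASA1 held 64.7% ± 4.8 of the alpha subunit level in the control against its isogene ASA2, 63.9% ± 8.5 with W, 79.0% ± 10.7 with Pb OS and 84.7% ± 4.4 with Sl OS. ASA2 itself did not change detectably with OS (0.13 and 0.01 on the log2 scale, adjusted p = 0.422 and 0.946).

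DAHP synthase changed hands as well. DHS2 was the largest of the 3 genes in the control with 46.5% ± 2.5, DHS1 had 32.1% ± 3.6 and DHS3 21.4% ± 3.5. With OS at 3 h DHS3 held 53.0% ± 6.8 (Pb OS) and 55.8% ± 5.1 (Sl OS), and DHS2 19.2% ± 7.9 and 16.4% ± 4.8. With W the mean share was largest for DHS1, at 42.3% ± 6.3, although in W replicate 1 DHS2 led with 39.1% against 35.6%. Shares keep the difference between replicate pairs, which was 0.712 on the log2 scale for DHS1. W at 3 h held 1 library of the first pair and 2 of the second, so its mean shares lean to the second. TSB1 by contrast kept 88.8% to 90.2% of the beta subunit level in all 3 h groups and the control, and TSB2 3.5% to 4.3%. At the alpha subunit TSA1 rose from 77.6% ± 7.0 to 98.8% ± 0.8 with Sl OS over INS, which encodes a related indole synthase and fell 2.81-fold (-1.49 ± 0.42, adjusted p = 0.0055).

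The log2 ratio of IGPS to AT5G48220 was 0.38 ± 0.65 (SD, n = 4) in the control, 3.71 ± 0.76 (n = 4) with Pb OS and 4.22 ± 0.49 (n = 4) with Sl OS, 10.0 and 14.3 times the control ratio. Both gave p = 0.0286 in a two-sided exact permutation test, the smallest value that 4 against 4 samples allow, and 0.0571 after Benjamini-Hochberg adjustment over the 12 ratios compared, so that none of the 12 passed at 0.05. The same p was reached by ASA1 to ASA2 with Sl OS (3.11 times the control ratio) and by DHS1 to DHS2 with W (1.84 times), Pb OS (2.23 times) and Sl OS (2.48 times). Without Pb OS 3 h replicate 2, the ratio of ASA1 to ASA2 with Pb OS reached that smallest p as well, and the adjusted p of all ratios tied at it was then 0.049 with the exact p of the others unchanged. Whether a ratio at the smallest p passes thus depends on how many of the 12 tie at it, not on its size. For TSB1 to TSB2 the ratio was 0.90 to 1.16 times that of the control (exact p of 0.657 or more).

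**Figure D4:**
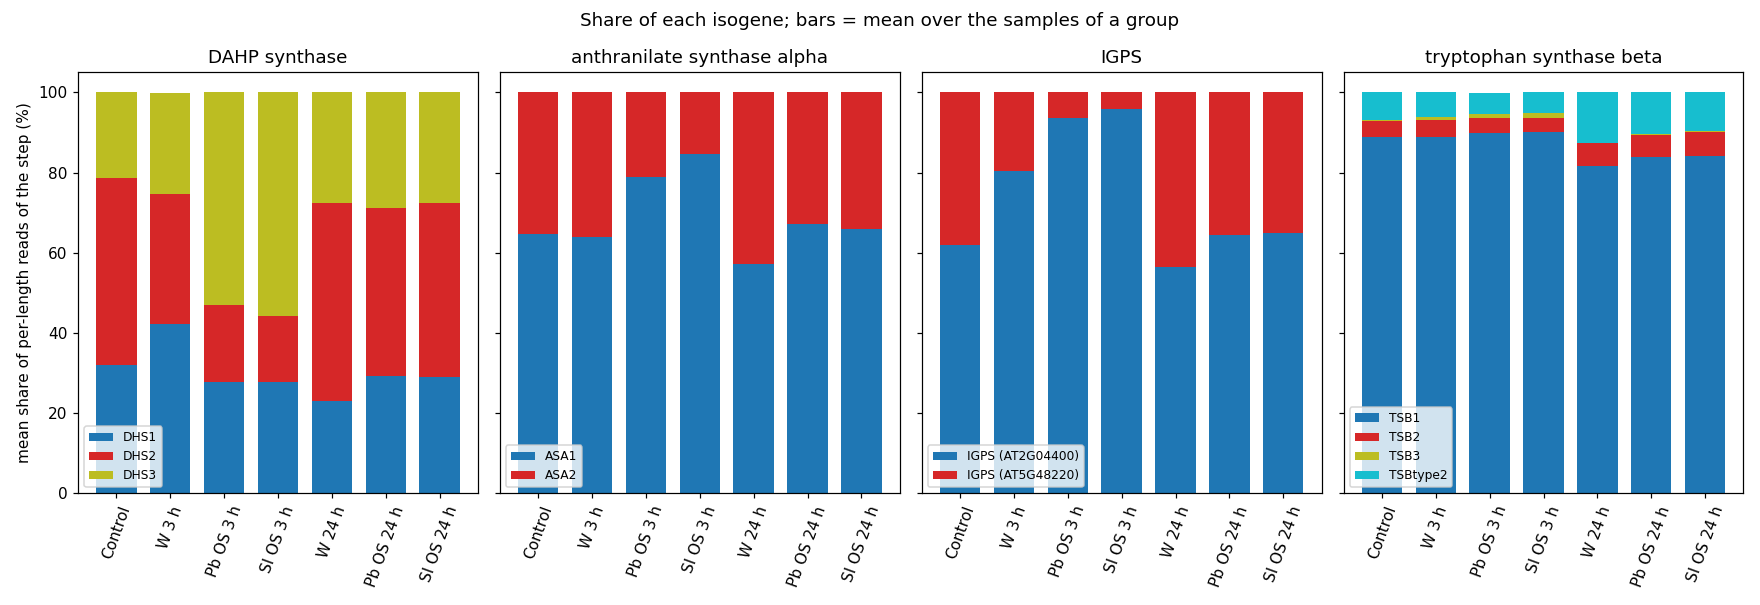
Mean share (%) of each isogene in the summed reads per exon length of its step, by group. The steps are DAHP synthase, the anthranilate synthase alpha subunit, IGPS and the tryptophan synthase beta subunit. Bars are means over the samples of a group, without error bars. AT5G48220 narrows from 38.1% in the control to 4.2% with Sl OS at 3 h, DHS3 widens to 55.8%, and TSB1 holds 81.7% to 90.2% throughout.

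Of the 8 other shikimate pathway genes measured, 4 were called higher with each OS at 3 h (DHS3, DHQ-SDH, EPSPS at AT2G45300 and CS) and 7 (Pb OS) and 8 (Sl OS) were higher on p alone, against 26.3% and 27.9% of all genes, none being lower. DHS3, the third DAHP synthase gene, rose 4.67-fold and 5.63-fold, and CS, chorismate synthase, the last step of the pathway, 4.35-fold and 4.93-fold. EPSPS, the enzyme that glyphosate blocks, rose 2.93-fold and 3.39-fold in its AT2G45300 copy, and DHQ-SDH, which carries out the middle steps, 2.54-fold and 2.78-fold. The list's median change was 1.02 and 1.15. None of the 8 passed with W.

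Of the other tryptophan genes, 8 of the 12 listed were measured, and 3 were called higher and 1 lower with each OS. Of all genes, 13.4% (Pb OS) and 14.5% (Sl OS) were called higher and 14.5% and 16.2% lower. The count called lower is close to the share of all genes. PAI2 (phosphoribosylanthranilate isomerase) rose 4.16-fold and 4.66-fold and was called with W also (2.63-fold), but shares 31.8% of its 150-base windows with PAI1. TSB3 had 3 to 77 reads in the control, 58 to 203 with W, 40 to 1092 with Pb OS and 204 to 890 with Sl OS. This was a steep rise from a low level, and TSB3 too was called with W (2.76 on the log2 scale). A type 2 beta subunit gene (AT5G38530) rose 2.35-fold and 2.61-fold. INS was the gene called lower. On the branch to phenylalanine and tyrosine, which competes for chorismate, 2 (Pb OS) and 3 (Sl OS) of 12 genes were called higher and 0 lower, with medians of 0.22 and 0.20, where 13.4% and 14.5% of all genes were called higher. The Pb OS count is close to the share of all genes. They were ADT4 (arogenate dehydratase, 3.16-fold and 3.05-fold), TYRA1 (arogenate dehydrogenase, 2.06-fold and 2.23-fold) and, with Sl OS, PPA-AT (prephenate aminotransferase, 2.16-fold).

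Among the users of tryptophan, CYP79B2, which opens the route to indole glucosinolates and camalexin, rose 2.17-fold with Pb OS (adjusted p = 0.000337) and 2.41-fold with Sl OS (adjusted p = 8.26e-05). At 24 h CYP79B2 was lower than the control on p in all treatments, by 0.98 (W), 0.94 (Pb OS) and 0.87 (Sl OS) on the log2 scale (adjusted p of 0.0196 to 0.0257), without passing the size threshold. CYP79B3 changed at 3 h by 0.71 with Pb OS (adjusted p = 0.0784) and by 0.80 with Sl OS (adjusted p = 0.0461), under the size threshold in both. TAA1, of the auxin route, fell with Sl OS (-1.81, adjusted p = 0.000534) and did not pass with Pb OS (-0.82). Its reads were few, 37 to 110 in the control, 35 to 57 with Pb OS and 12 to 55 with Sl OS at 3 h. Of 3 MYB regulators of indole glucosinolates, MYB122 had 0 reads in all control libraries, 6 to 28 with W, 45 to 90 with Pb OS and 24 to 127 with Sl OS. MYB34 (1.04 and 1.35, adjusted p = 0.187 and 0.0823) and MYB51 (0.14 and 0.03, adjusted p = 0.793 and 0.962) did not pass.

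Over the 27 samples the profile of PAT1 was the most like that of ASA1 among all genes (Pearson r = 0.96), followed by IGPS (0.958). TSB1 ranked 13th, TSA1 16th and ASB1 18th, while DHS1 ranked 418th and TSB2 817th. DHS3 was 4th and CS 19th. DHS2 (-0.383) and AT5G48220 (-0.845) ran opposite. The 5 genes outside the lists with the highest values were AT3G55410, AIG2A, TIF3B1, PGDH1 and SDH2-1 (0.949 to 0.955). The points share libraries and fall into treatment groups, so these values are a description.

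DHS1 lies at chr4:18539511-18542122, DHS2 at chr4:16116371-16118825 and TSB2 at chr4:13586268-13588897, all on the plus strand of TAIR10.1. ASA1 (chr5:1719533-1722933) and TSB1 (chr5:22264594-22266902) are on the minus strand of chromosome 5, and PAT1 (chr5:5957080-5960201) and AT5G48220 (chr5:19549676-19552267) on its plus strand. ASB1 lies at chr1:8836835-8839609 and TSA1 at chr3:20223034-20225523 on the minus strand, and IGPS at chr2:1531148-1533737 on the plus strand. ASA1, ASB1, PAT1, IGPS, AT5G48220 and DHS2 each overlap an annotated gene on the opposite strand. ASB1 also overlaps AT1G05927 on its own strand. Whether counting used the strand is not given in the sources used here. Whether reads in these overlaps were given to the member, to its partner or left uncounted is therefore not known.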

How the data were processed

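RNA was sequenced from 27 leaf samples. Per the labels and the study's methods, the authors trimmed reads with cutadapt 2.5, mapped them to TAIR10 with STAR 2.5.3a, counted them per gene with HTSeq 0.9.1, filtered and TMM-scaled the counts, and deposited log2 CPM values with a prior count of 1 from which a batch effect had been removed. The authors left out 1 W sample as an outlier. A further deposited file holds the authors' own fold changes and p-values and was not used.

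The members were found by AGI code. Group means were fitted to the deposited log2 values of all 18899 genes and 27 samples with limma 3.58.1 in R 4.3.3, with the replicate number of the labels as a block of 4, the number of batches the study states, and 17 contrasts were taken, with Benjamini-Hochberg adjustment over all genes in each. The deposited values turned out to be centred on 2 replicate pairs, not 4 batches, in which the W 3 h samples stood as replicates 1, 3 and 4, and whole reads were recovered from them (100.0% of genes, tolerance 0.02 reads); voom was run on these. Isogene shares used recovered reads and merged exon lengths of RefSeq TAIR10.1, whose nuclear sequence served for promoters. All 10 members, all genes of the listed pathways and the 5 genes most like ASA1 were named. Scripts were tested on simulated data. Members and lists were chosen with earlier results of these data known. Python 3.11.15 was used. Alternatives were the block, numbering, batches, pseudocount, filter, voom, fits of only the groups compared and leaving out each library.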

Additional observations from a re-analysis of the deposited data

Results flagged for a closer look

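Among the 10 genes, 5 interactions of the OS effect with time passed at an adjusted p under 0.05 in limma, and so differed between 3 h and 24 h by a test of the difference itself. TSB1 was flagged for both secretions, with -0.84 for Pb OS and -1.07 for Sl OS (log2 OS effect over W at 24 h minus that at 3 h). ASB1 (-1.35), PAT1 (-1.01) and AT5G48220 (0.96) were flagged for Sl OS. With the W 3 h samples numbered 1, 3, 4 in the block, as the deposited values were centred, 3 of these 4 Sl OS interactions passed and ASB1 did not (adjusted p = 0.0555). Numbered 1, 4, 3, ASB1 (adjusted p = 0.0577) and AT5G48220 (adjusted p = 0.0512) did not. Of the 60 groups of 4 samples examined, 0 held a sample beyond Dixon's limit for its size.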

How the results depend on the processing

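Of 3094 values of single results under other settings, 2994 kept their side of the threshold, 82 lost the call and 18 gained it. The 3094 include results that were not called as reported and so had no call to lose. The share lost among called results alone was not counted. Of results called in either setting, 0 reversed direction. Changes of direction in results called in neither setting were not counted apart. Isogene ratios left with too few samples to reach a p under 0.05 were judged by their size. Without the replicate block the number of members called was the same in all 17 comparisons (for instance 8 with Pb OS at 3 h). A limma fit with the 2 replicate pairs as batches and a variance trend gave the study's counts at 3 h against control. These were 812, 5270 and 5837 genes for W, Pb OS and Sl OS, with 1, 8 and 8 members called. Whether replicate numbers pair the samples cannot be read from the deposited values, since a difference between replicate pairs (up to 0.712 on the log2 scale among the members, for DHS1) had been removed from them. A fit of only the groups compared gave 0 members for Pb OS against W at 3 h, 0 for W at 24 h against 3 h and 0 for the Pb OS interaction with time. Over all genes it called 0, 0 and 378 in place of 4695, 808 and 1061. Such fits hold fewer samples. The fit of only Sl OS and W at 3 h, with as many samples as that of Pb OS and W, called 4250 genes and 7 members. Why the fits differ was not tested. Fitting 2 batches by time gave 3 members for the Pb OS interaction, and numbering the W 3 h samples 1, 4, 3 gave 2 for the Sl OS interaction; the cause was not tested. Leaving out single libraries gave 0 to 1 members for W at 3 h against control, 5 to 8 for Pb OS at 3 h against control, 3 to 6 for W at 24 h against 3 h, 0 to 5 for the Pb OS interaction and 1 to 4 for the Sl OS interaction. At log2(CPM + 5) AT5G48220 with Pb OS was at -0.94, under the size threshold. Over all genes, limma on deposited values called 292, 338 and 519 at 24 h against control for W, Pb OS and Sl OS, voom 132, 158 and 327, the fit by time 853, 835 and 993, log2(CPM + 5) 66, 71 and 150, and only the groups compared 59, 58 and 103. At 3 h log2(CPM + 5) called 296, 2476 and 2888 in place of 722, 5259 and 5820, and only the groups compared 365 for W. The fit by time called 2522 in place of 808 for W at 24 h against 3 h, and 2784 and 4943 in place of 1061 and 2645 for the interactions; numbering 1, 4, 3 gave 707 for that of Pb OS. Only the groups compared gave 3929 and 5952 in place of 8650 and 9274 for 24 h against 3 h with Pb OS and Sl OS. Between OS and W at 24 h the counts were 2 to 51 for Pb OS (11 as reported) and 7 to 142 for Sl OS (74 as reported).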
